A study of Mus musculus with 6 samples.

Results

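The ephrin, Eph receptor, semaphorin and plexin genes were examined in P19, an embryonal carcinoma line of the mouse with many features of the pluripotent embryo, which can be driven to neural or cardiac fates. They were chosen by symbol: Efna, Efnb, Epha and Ephb with a number, Sema with a number and a letter, and Plxn with a letter and a number. This gave 51 of the 34745 genes measured: 5 Efna, 3 Efnb, 9 Epha, 5 Ephb, 20 Sema and 9 Plxn genes, all protein coding. The 3 opposite-strand transcripts named after Plxna4 were left out, and had 0 counts in all libraries.

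RNA sequencing gave 6 libraries: 3 of untreated P19 cells, the controls, and 3 of P19 cells given the peptide PDTLN1, whose dose and duration the labels do not state. All cells grew in alpha-MEM with fetal bovine serum, and no genetic change is named for either group. The text on treatment is attached to all 6 libraries, so the groups follow the treatment given for each sample. Total counts ran from 10381307 to 11663081 per library, of which the 51 genes took 0.162% to 0.168%. Separate cultures are not stated for the libraries, so p-values measure only the spread between these samples, which may be technical. Pou5f1, the central pluripotency factor, stood at 469 to 559 FPKM (counts scaled for gene length and library size) in the 6 libraries. The extraction text of the labels speaks of retinas. Of 8 photoreceptor and retina markers none had enough counts to test, and Crx, Arr3 and Opn1sw had 0 counts in every library, which allows up to 0.257 to 0.289 CPM (counts scaled to library size), taking 3 counts as the limit and covering counting error only.

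Ephrins and Eph receptors signal between touching cells. Ephrin-A ligands are held on the surface by a lipid (GPI) anchor and ephrin-B ligands span the membrane, and the Eph receptors they bind are receptor tyrosine kinases, so that signals can run into both cells. Semaphorins are secreted or membrane-bound ligands of the plexins, receptors that act on small GTPases and the cytoskeleton, with neuropilins as co-receptors for most secreted members. In the embryo these families set tissue boundaries and steer axons, neural crest cells and vessels.

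P19 cells held members of each family at well-measured levels. Of the 51 genes, 33 (64.7%) exceeded 1 FPKM in every library, against 31.1% of all genes in the table. These sets are unlike: 50 of the 51 members had enough counts to test, but only 13836 of the 34745 genes did. The shares therefore do not rank the families against expressed genes. Epha2, a receptor typical of early embryonic and epithelial cells, had the highest mean, 33.9 FPKM. The ephrin-B ligand gene Efnb2 followed at 29.4 FPKM, then the plexin Plxnb2 at 21.5 FPKM and the receptor Epha1 at 16.9 FPKM. None of these 4 overlapped the next gene in the order in any library. From Efna2 (12.8 FPKM) through Plxna1, Efna5, Efnb1 and Ephb4 to Efna4 (8.73 FPKM), neighbours in the order overlapped. At the other end, Plxnb3, a plexin known mainly from glia, had 2 counts in PDTLN1 library 2 and 0 counts elsewhere; it was the 1 member too low to test.

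**Figure D1:**
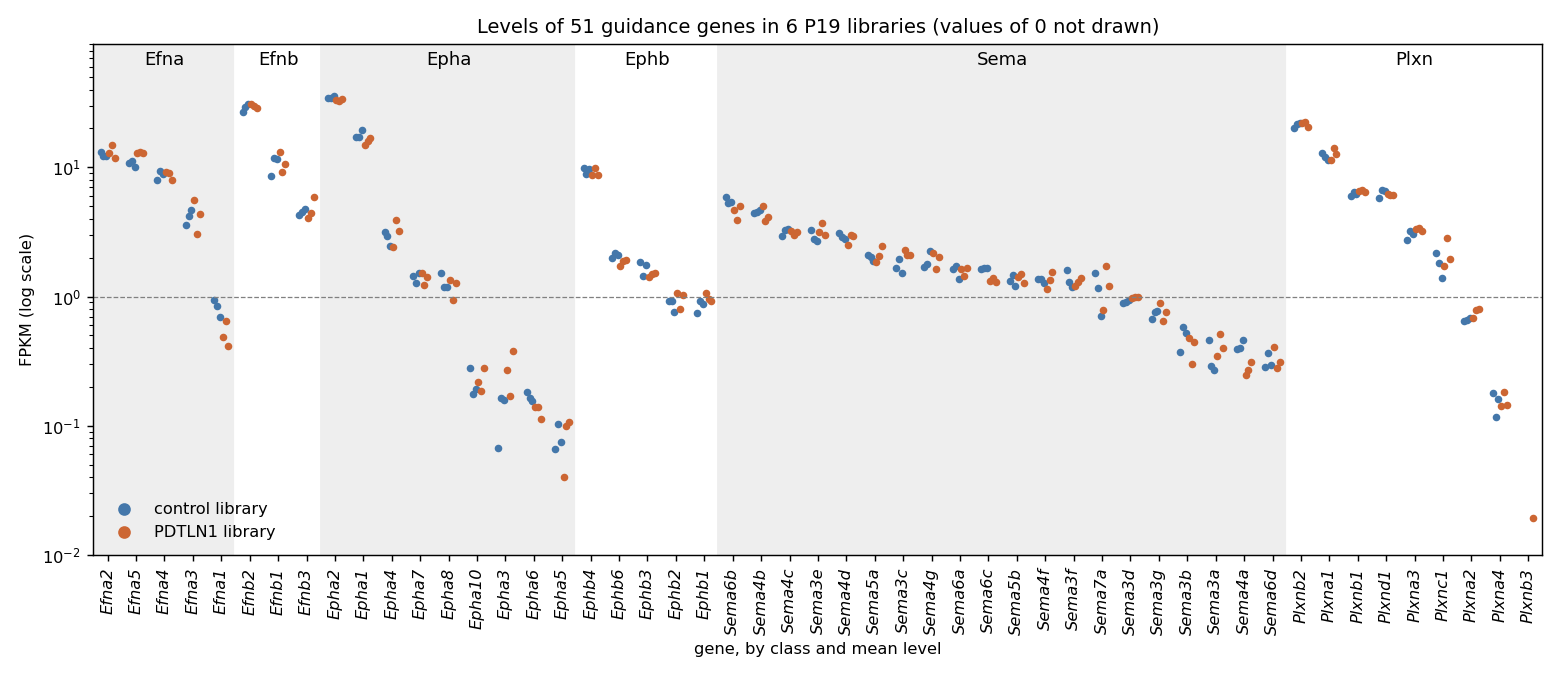
Level of each of the 51 genes in each library, as FPKM on a log axis, ordered by mean within a class; blue points are control and orange points PDTLN1 libraries, and the dashed line marks 1 FPKM. Epha2, Efnb2 and Plxnb2 lead their classes, and 33 genes lie above the line in every library.

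The classes differed in how their level was spread over members. Epha2 alone made up 59.4% of the summed Epha FPKM, Efnb2 65.6% of Efnb, Ephb4 63.3% of Ephb and Plxnb2 40.9% of Plxn. No semaphorin dominated: Sema6b, the highest in FPKM, made up 13.9% of the Sema sum. These shares depend on the gene length behind each FPKM value, which was 3977 bases for Sema6b and 13576 for Sema6c. In CPM, which is not scaled for length, the control means of Sema4b (37.6), Sema6a (34.3) and Sema3e (34.0) exceeded that of Sema6b (21.98). Ephb4, the receptor that pairs with ephrin-B2 in vessel development, was at 9.28 FPKM beside the 29.4 FPKM of Efnb2. Its fellow receptors Ephb6 (1.96 FPKM), which lacks kinase activity, and Ephb3 (1.58 FPKM) were lower. Among plexins, Plxna1 (12.4 FPKM), a receptor for secreted and class 6 semaphorins, came after Plxnb2, followed by Plxnb1 (6.38 FPKM), the receptor of Sema4d, and Plxnd1 (6.26 FPKM), the receptor of Sema3e. The ligands Sema4d and Sema3e were at 2.87 and 3.10 FPKM. Of the neuropilins, Nrp2 averaged 3.62 FPKM and Nrp1 0.786 FPKM. The lowest Epha genes, Epha5, Epha6, Epha3 and Epha10, averaged 0.223 FPKM or less, while Epha4, Epha7 and Epha8 averaged 3.03, 1.40 and 1.24 FPKM.

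The stretch of 250 bases before the start site is shown for 3 members: Efna5 and Sema6c, with the smallest p in each direction, and Epha2, the highest in FPKM. Sequences are from RefSeq (build GRCm38.p6), 5′ to 3′ on the strand of the gene, with CpG dinucleotides in capitals. Efna5 is at chr17:62881318-62881567 on the minus strand, Sema6c at chr3:95160170-95160419 on the plus strand and Epha2 at chr4:141300971-141301220 on the plus strand, and no annotated exon lies in these stretches.
Efna5: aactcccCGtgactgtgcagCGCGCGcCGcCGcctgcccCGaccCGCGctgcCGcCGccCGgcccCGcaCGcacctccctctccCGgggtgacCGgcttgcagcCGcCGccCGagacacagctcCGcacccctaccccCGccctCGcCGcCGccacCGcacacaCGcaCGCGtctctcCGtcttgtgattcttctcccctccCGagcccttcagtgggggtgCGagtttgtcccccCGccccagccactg
Sema6c: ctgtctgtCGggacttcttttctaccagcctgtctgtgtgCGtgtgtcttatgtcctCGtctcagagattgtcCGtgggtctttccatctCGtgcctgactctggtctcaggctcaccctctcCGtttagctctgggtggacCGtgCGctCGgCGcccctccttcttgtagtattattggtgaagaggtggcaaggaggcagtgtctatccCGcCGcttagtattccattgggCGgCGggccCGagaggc
Epha2: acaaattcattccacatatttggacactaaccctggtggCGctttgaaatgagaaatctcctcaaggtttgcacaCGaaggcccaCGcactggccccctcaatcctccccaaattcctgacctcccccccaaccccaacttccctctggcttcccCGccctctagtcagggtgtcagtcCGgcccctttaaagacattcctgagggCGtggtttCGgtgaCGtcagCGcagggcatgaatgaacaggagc
They hold 32, 15 and 9 CpG. Over the 45 members with a promoter in the table the median was 16, the same as over 12995 promoters of genes tested here. The tested genes include members. Some of the promoters used lie away from the deposited gene start: by 271370 bases for Sema3a, 37064 for Sema4d, 2831 for Plxnb2 and 1611 for Plxna2. TATAAA, searched on both strands, was found in the stretch of 1 of the 45 members (2.22%), Efnb2, and in 6.09% of the promoters of tested genes.

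PDTLN1 and control libraries were then compared gene by gene. By the quasi-likelihood test of edgeR, 0 of 50 tested members passed the threshold of 0.05 on the adjusted p, and 3 of 13836 genes did (0.0217%). The adjusted p of the members ran from 0.989 to 0.998. DESeq2 called 0 of the 46 members to which it gave an adjusted p, against 0.112% of all genes. At an unadjusted p under 0.05 there were 7 members (14%), against 3.99% of all genes tested, or 3 with DESeq2 (of 50 tested, against 2.65% of all genes). Of the 7, 3 were higher after PDTLN1 (Efna5, Sema3c and Epha3, against 2.3% of all genes) and 4 lower (Sema6c, Sema4a, Efna1 and Sema6b, against 1.69%). The 3 libraries of one group all lay above the 3 of the other for 14 members (28%), against 9.79% of all genes. Of these, 6 were higher after PDTLN1 (background 4.81%) and 8 lower (background 4.98%).

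These shares moved with single libraries. Without PDTLN1 library 1, 3 members (of 50) stood at an unadjusted p under 0.05, against 8.23% of all genes; without control library 1 there were 4, against 5.9%. There were 4 without control library 2 and 3 without control library 3, against 2.71% and 2.48%. Without both libraries numbered 1, 7 members were under 0.05, against 17.4%, the groups did not overlap for 28 members, against 50.5%, and 0 members passed the adjusted threshold, against 0.652%. The median log2 fold change of the 50 members was 0.03, beside -0.000874 for all genes. Without control library 1 the median of the members was -3.99e-05. Of the 50 members, 31 (62%) lay above 0, against 49.7% of all genes. For 37 members (74%) the 95% interval of the fold change lay inside 1.5-fold in either direction, as it did for 69.9% of all genes.

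**Figure D2:**
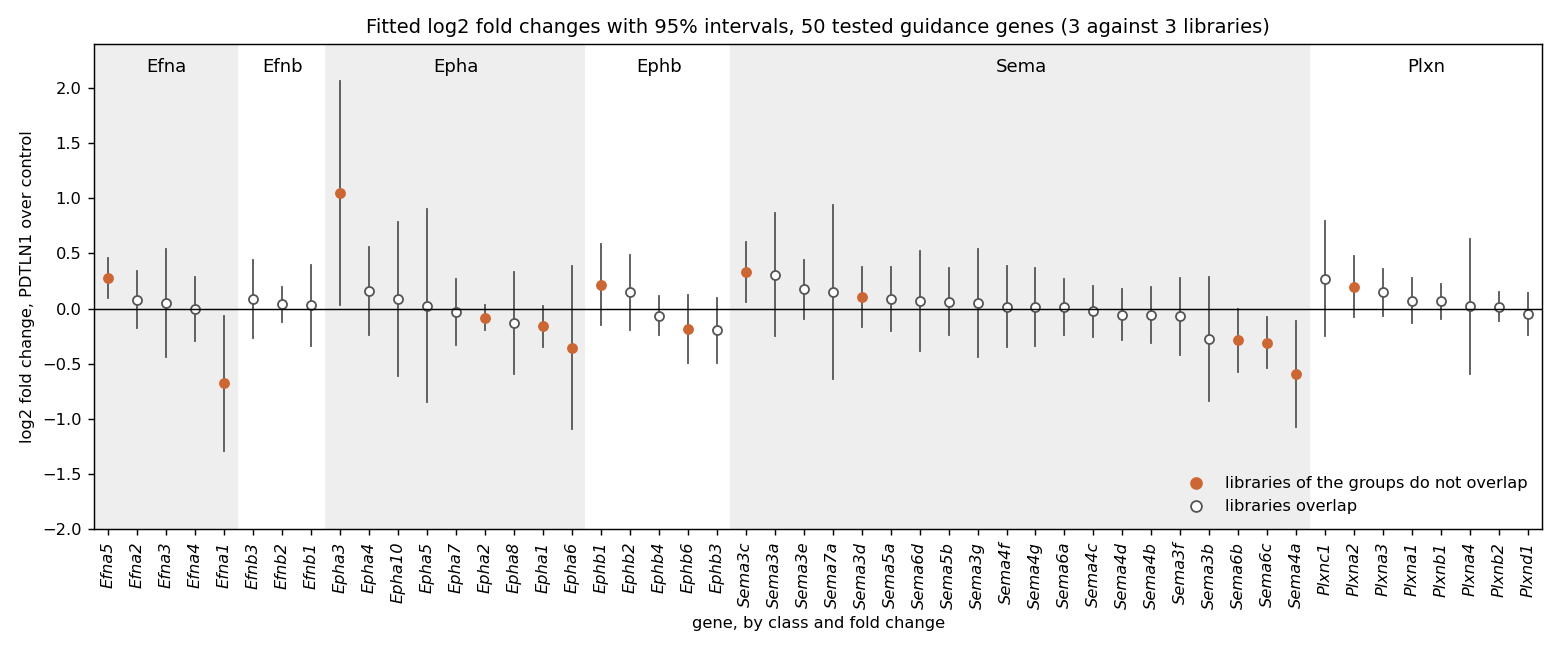
Fitted log2 fold change (PDTLN1 over control, 3 against 3 libraries) of the 50 tested genes by class, with 95% intervals as lines; filled points mark genes whose groups do not overlap. Most points lie near 0, Epha3 has the highest value at 1.05 with a wide interval, and Efna1 the lowest at -0.68.

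Of the ephrin-A ligands, Efna5 had the smallest p of all members. Ephrin-A5 patterns topographic maps in the brain and can bind EphB2 besides the EphA receptors. Its level was 46.6, 48.9 and 43.4 CPM (scaled by TMM, edgeR's library factor) in the controls (libraries 1, 2 and 3, the order used throughout), and 55.9, 56.7 and 55.5 CPM after PDTLN1. Every PDTLN1 library thus lay above every control library, and the 3 were close together. The means were 46.3 ± 2.75 and 56.1 ± 0.624 CPM (SD, n = 3 each). The log2 fold change was 0.28 (1.21-fold, SE 0.08, 95% interval 0.10 to 0.46). The unadjusted p was 0.007 and edgeR's adjusted p 0.989, so the difference did not pass. The gene (ENSMUSG00000048915) spans bases 62604184 to 62881317 of chromosome 17 in GRCm38, on the minus strand, with no other gene sharing its exons.

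Efna1 encodes ephrin-A1, a ligand of EphA2. It was a low gene here, with 18 to 37 counts per library. It stood at 3.55, 3.19 and 2.60 CPM in the controls, and at 1.84, 2.43 and 1.54 CPM after PDTLN1. The groups did not overlap, although control library 3 and PDTLN1 library 2 came within a few counts of each other. The log2 fold change was -0.68 (SE 0.27, 95% interval -1.29 to -0.07), with an unadjusted p of 0.0331 and an edgeR adjusted p of 0.989. Efna2, the highest ephrin-A gene, ran from 12.2 to 13.0 FPKM in controls and from 11.7 to 14.9 FPKM after PDTLN1, so the groups overlapped. Efna4 averaged 8.74 FPKM in the controls and 8.72 FPKM after PDTLN1. The 3 ephrin-B genes overlapped between the groups: Efnb2 ran from 26.8 to 30.8 FPKM in controls and from 28.7 to 31.0 FPKM after PDTLN1, with a 95% interval of the log2 fold change from -0.12 to 0.20.

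Among EphA receptors, the main pair of P19 cells, Epha2 and Epha1, had slightly lower values in every PDTLN1 library. Epha2 was at 34.5, 34.2 and 35.7 FPKM in the controls, and at 32.9, 32.3 and 33.6 FPKM after PDTLN1. These ranges did not overlap but were close, with a log2 fold change of -0.08 (SE 0.05, 95% interval -0.20 to 0.03; edgeR adjusted p 0.989). Epha1 was at 17.0, 17.0 and 19.3 FPKM, and at 14.9, 16.0 and 16.8 FPKM, in the same order. Its log2 fold change was -0.16 (95% interval -0.34 to 0.02), and its exons overlap those of Zyx on the opposite strand, so without strand information in the sources its counts are uncertain. Summed over the 9 Epha genes, the level was 57.2 to 60.7 FPKM in controls and 53.8 to 57.2 FPKM after PDTLN1.

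The largest fold change of any member was that of Epha3, a receptor of axons and mesenchyme, on very few counts: 4, 10 and 10 in the controls, and 16, 11 and 25 after PDTLN1. PDTLN1 library 2 was near control libraries 2 and 3 (0.956 against 0.938 and 0.896 CPM), and control library 1 was the lowest. The log2 fold change of 1.05 had an SE of 0.45 and a 95% interval from 0.03 to 2.06, and it was 0.75 without both libraries numbered 1. Epha6, at 9 to 13 counts, was lower in each PDTLN1 library, with an interval from -1.09 to 0.38. Of the EphB receptors, Ephb1 was higher in each PDTLN1 library (5.86, 7.22 and 6.90 CPM in controls, 8.42, 7.56 and 7.26 CPM after PDTLN1), and Ephb6 lower (10.2, 11.2 and 10.8 CPM, then 8.81, 9.73 and 9.74 CPM). Both intervals of the log2 fold change included 0, from -0.15 to 0.58 and from -0.49 to 0.12. Ephb4 ran from 8.93 to 9.80 FPKM in controls and from 8.69 to 9.81 FPKM after PDTLN1, which overlap.

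The summed levels of class 3 and class 6 semaphorins lay on opposite sides of the controls, with no member past the adjusted threshold. This split by semaphorin class was not planned, and the sums were not tested. Groups overlapped for classes 4, 5 and 7. The sum of all 20 Sema genes overlapped too, at 35.2 to 37.1 FPKM in controls and 34.9 to 36.5 FPKM after PDTLN1. The 7 class 3 genes encode secreted repellents and attractants, and 5 of them lay above 0, against 49.7% of all genes. The median log2 fold change of the 7 was 0.10. Their summed level was 8.94, 8.56 and 7.93 FPKM in the controls, and 9.34, 9.55 and 9.10 FPKM after PDTLN1, which did not overlap. Sema3c, a ligand that guides cardiac neural crest cells, was at 18.6, 21.8 and 17.0 CPM in controls and 25.6, 23.4 and 23.3 CPM after PDTLN1. Control library 2 came nearest to the PDTLN1 libraries. The log2 fold change was 0.33 (1.26-fold, SE 0.12, 95% interval 0.06 to 0.61; unadjusted p 0.0227, edgeR adjusted p 0.989). Sema3d, which also acts on neural crest and vessels, was very even at 11.6, 11.8 and 12.1 CPM, then 12.6, 12.8 and 12.8 CPM, a log2 fold change of 0.10 with an interval from -0.17 to 0.37. Sema3e, the plexin-D1 ligand, averaged 34.0 ± 3.46 and 38.4 ± 4.37 CPM (SD, n = 3 each) and its groups overlapped.

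The class 6 genes encode transmembrane semaphorins that act through class A plexins. Their sum was 9.40, 9.02 and 8.72 FPKM in controls and 8.03, 7.02 and 8.29 FPKM after PDTLN1, again with no overlap. Sema6c was even within each group: 22.1, 22.5 and 22.8 CPM in controls and 17.9, 18.9 and 17.5 CPM after PDTLN1. Its means were 22.4 ± 0.347 and 18.1 ± 0.741 CPM (SD, n = 3 each). The log2 fold change was -0.31 (0.81-fold, SE 0.10, 95% interval -0.54 to -0.08; unadjusted p 0.0135, edgeR adjusted p 0.989). Sema6b, the highest semaphorin per length, was at 23.4, 21.1 and 21.4 CPM and then 18.7, 15.5 and 19.9 CPM, with PDTLN1 library 2 the lowest. Its log2 fold change of -0.29 had an interval ending at -0.00231, just below 0. Sema6a and Sema6d overlapped between the groups. The class sum therefore followed Sema6b and Sema6c. Sema6c (ENSMUSG00000038777) lies on chromosome 3 from 95160457 to 95174024 in GRCm38, on the plus strand.

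Sema4a, a membrane semaphorin known from immune cells and the retina, was lower in every PDTLN1 library. It had 24 to 48 counts per library, and stood at 3.65, 3.75 and 4.30 CPM in controls and 2.32, 2.52 and 2.90 CPM after PDTLN1. The log2 fold change was -0.59 (SE 0.21, 95% interval -1.07 to -0.11; unadjusted p 0.0217, edgeR adjusted p 0.989). The better expressed class 4 genes Sema4b, Sema4c and Sema4d overlapped between the groups. The 5 blood markers summed to 11.04 to 15.8 CPM in controls and 9.99 to 15.2 CPM after PDTLN1, which overlap. Cd68 and Hbb-bs made up most of that sum. Ptprc was at 0 CPM in every control library, and at 0.290, 0.521 and 0.0854 CPM after PDTLN1. The sum therefore cannot show whether blood cells were present, and their part in the Sema4a values was not tested. In bulk RNA, fewer cells of a type and less RNA per cell cannot be told apart.

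**Figure D3:**
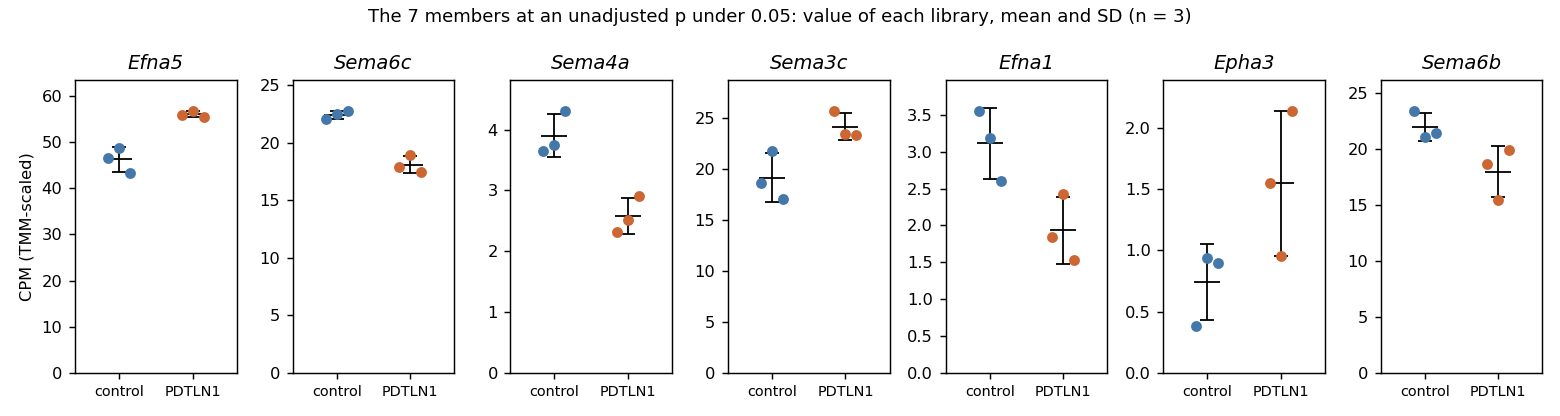
TMM-scaled CPM of each library (points), mean and SD (black, n = 3) for the 7 members at an unadjusted p under 0.05, each on its own axis from 0. In all 7 the groups are separate. The margin is wide in Sema4a, Sema6c and Efna5, narrower in Sema3c, Sema6b and Efna1, and narrowest in Epha3.

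No plexin was called, and 7 of 8 tested lay above 0, against 49.7% of all genes. The median log2 fold change of the 8 was 0.07. Plxna2, a receptor for class 6 and neuropilin-bound class 3 semaphorins, was at 13.1, 13.2 and 13.7 CPM in controls and 13.8, 15.9 and 16.1 CPM after PDTLN1. PDTLN1 library 1 sat close to the controls, and the log2 fold change was 0.20 (95% interval -0.08 to 0.48). Plxna3 averaged 36.7 ± 2.98 and 40.7 ± 1.39 CPM (SD, n = 3 each), and its groups overlapped. Plxnb2, the most abundant, ran from 20.3 to 22.1 FPKM in controls and from 20.7 to 22.2 FPKM after PDTLN1, and its interval, -0.12 to 0.15, was the narrowest of all members after that of Epha2.

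Some members differed more between libraries of one group than between the groups. Sema7a, a GPI-anchored semaphorin, and Plxnc1, the plexin it binds, took the same course. Sema7a was at 4.99, 3.84 and 2.33 CPM in the controls and 2.61, 5.74 and 3.93 CPM after PDTLN1. Plxnc1 was at 18.1, 15.1 and 11.5 CPM and at 14.2, 23.6 and 16.0 CPM. Both were highest in PDTLN1 library 2, next in control library 1, and low in control library 3 and PDTLN1 library 1. They had the largest spread of their classes within a group, with SDs of 0.50 and 0.37 on the log2 scale, where the median of all genes tested was 0.18.

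Epha4, and Sema3a, which was chosen after its values were seen, were likewise highest in PDTLN1 library 2. Efna3 had the largest spread of the ephrin-A genes and ran the other way, at 10.3, 12.1 and 13.3 CPM in controls and 15.9, 8.69 and 12.4 CPM after PDTLN1. Efnb1 was at 30.9, 42.3 and 41.2 CPM and at 46.7, 32.6 and 37.6 CPM. The mean of 26 genes from the ATF4 programme, a response to stress and amino acid shortage, deviated by -0.31, 0.18 and 0.37 log2 units from its overall mean in the controls, and by 0.39, -0.44 and -0.20 after PDTLN1. Efna3 and Efnb1 had the sign of that list in all controls and in PDTLN1 libraries 1 and 2. Sema7a and Plxnc1 had the opposite sign in control libraries 1 and 3 and PDTLN1 libraries 1 and 2. The part of this stress programme in the members' values was not tested. The remaining leaders in spread were Efnb3 (SD 0.26), Epha5 (0.58, on 9 to 27 counts) and Ephb2 (0.21).

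**Figure D4:**
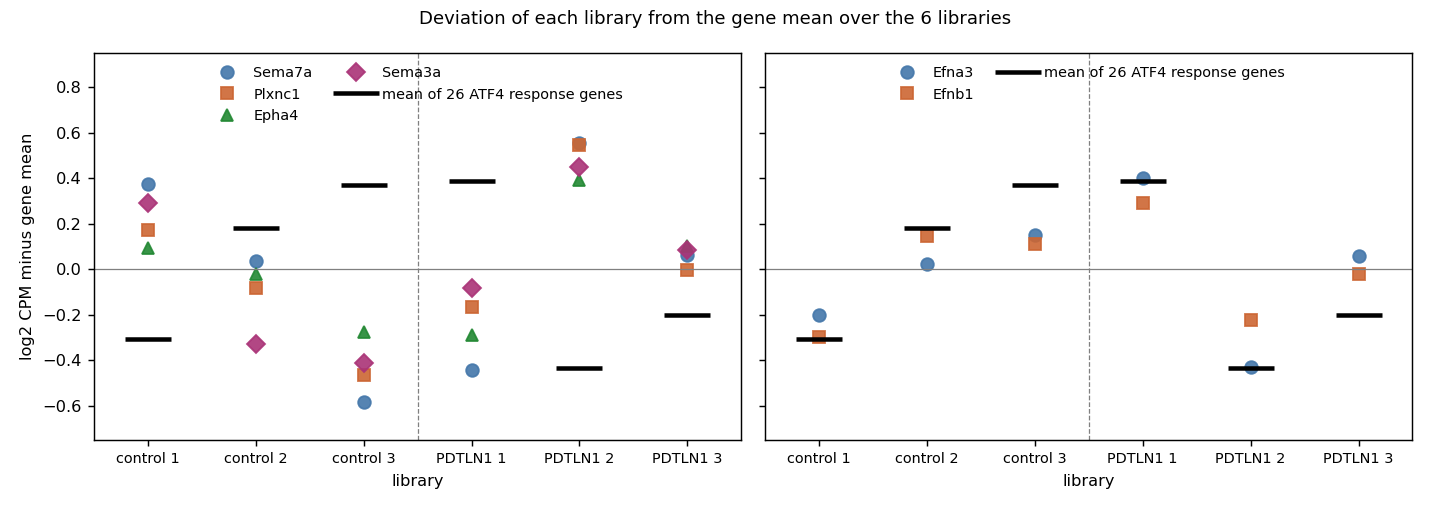
Deviation of log2 CPM in each library from the mean of the gene over 6 libraries, for 6 members (coloured symbols) and the mean of 26 ATF4 response genes (black bars), with the dashed line between control and PDTLN1 libraries. Sema7a, Plxnc1, Epha4 and Sema3a peak in PDTLN1 library 2, where the bar and Efna3 are lowest.

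Genes around these families gave no call either. Of 13 tested semaphorin co-receptors and partners, 11 lay above 0 with a median log2 fold change of 0.13, and 1, the adhesion gene Nrcam, was at an unadjusted p under 0.05. Nrcam ran from 84.2 to 86.5 CPM in controls and from 100.4 to 124.9 CPM after PDTLN1 (edgeR adjusted p 0.989). Erbb2, a receptor tyrosine kinase that partners plexin-B1, averaged 34.9 and 38.6 CPM (unadjusted p 0.139). Of 34 genes of plexin signalling, 23 lay above 0, with a median of 0.06. At an unadjusted p under 0.05 there were 4 with higher values and 2 with lower, against 2.3% and 1.69% of all genes; the 1 gene each in the other lists stands against the same 2.3%. Dpysl3, a cytoskeletal relay of semaphorin signals, averaged 23.6 and 29.6 CPM. Of 39 genes of Eph and ephrin signalling, 23 lay above 0 (median 0.04), and the adaptor gene Grb2 was the 1 under 0.05, at 51.8 ± 2.65 and 74.3 ± 15.3 CPM (SD, n = 3 each). Grip1, which binds ephrin-B tails, averaged 30.7 and 36.3 CPM. Of 19 tested netrin, slit and repulsive guidance genes, 14 lay above 0 (median 0.11). Flrt2, a ligand of the netrin receptor Unc5d, was at 17.8, 17.6 and 20.9 CPM and then 22.9, 26.3 and 21.3 CPM, and Unc5c averaged 5.63 and 7.34 CPM. Over all genes tested 49.7% lay above 0, and no gene of these lists passed edgeR's adjusted threshold.

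Marker sums for other cell types were compared with the members' values. The 10 neural markers, a cell type rich in these families, summed to 396 to 432 CPM in controls and 408 to 475 CPM after PDTLN1, which overlap. Nes, a progenitor gene, made up most of that sum, at 247 to 302 CPM in controls and 276 to 374 CPM after PDTLN1. Of the 7 neural markers tested, 4 were below 0 (Tubb3 -0.32, Dcx -0.49, Elavl3 -0.21 and Map2 -0.15 log2), with overlapping groups and none at an unadjusted p under 0.05. Their part in the members' values was not tested. The 10 pluripotency markers summed to 3022 to 3145 CPM in controls and 2913 to 3044 CPM after PDTLN1, most of it from Pou5f1 and Lin28a. Of the 9 tested, 7 were below 0. Groups did not overlap for Utf1 (-0.38 log2, edgeR unadjusted p 0.00248, adjusted p 0.989) and Pou5f1 (-0.11 log2). Zfp42 and Esrrb were low, at means of 0.147 and 0.288 FPKM. The 5 fibroblast markers summed to 61.0 to 61.7 CPM in controls and 45.8 to 58.0 CPM after PDTLN1, which did not overlap. Col1a1 was the main one. All 4 tested were below 0, with overlapping groups for each and none at an unadjusted p under 0.05. Whether cells of that kind had a part in the lower members was not tested.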

How the data were processed

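Libraries from P19 cells, 3 control and 3 given PDTLN1, were made with a TruSeq kit per the labels' protocols. The authors deposited whole-number counts per gene and library, not normalized, per the file headers. The authors also deposited FPKM; in 15678 of 15678 genes counted in all libraries, counts and FPKM gave 1 length per gene within 0.1%. Per the submitters' processing notes, Bowtie 0.12.2 and the builds mm8 and mm9 were used in some role. For the counter, annotation and strand setting, nothing is given in the sources used here. For 43 of the 51 members, positions in the table equalled those of GENCODE M21 (GRCm38). For 13 members an exon overlaps another gene, so their counts are uncertain: Efna3, Efna4, Epha1, Epha6, Epha10, Ephb1, Ephb4, Sema4a, Sema4c, Plxna1, Plxnb1, Plxnc1 and Plxna4.

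Samples were grouped by treatment label and columns assigned by title; the code P50 in the treated titles is not explained. Counts went through edgeR 4.0.16 in R 4.3.3: filterByExpr, TMM, glmQLFit (robust) and glmQLFTest, two-sided, adjusted by Benjamini-Hochberg over all 13836 genes tested, threshold 0.05. SE was taken as |log2 fold change| over the root of F, and intervals use the fitted degrees of freedom. Log2 values of single libraries used a pseudocount of 0.5 CPM. Levels between genes were compared in FPKM, so their order and shares depend on the length that counts and FPKM gave for each gene. Sums, medians and counts over members carry no test. Steps were tested on simulated data.

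Named are the 6 members with the smallest p in each direction, those whose groups do not overlap, the 3 highest and the most variable per class, and the 2 with the smallest p per other list. Of the plexin signalling list, 1 of these is not reported here. Sema3a, Sema4d, Plxnd1, the lowest Epha genes and chromosome neighbours were added after their values were seen. Members and lists were chosen with earlier results of these data known. Alternatives were DESeq2 1.42.0 (Wald test, or its size factors in edgeR), library totals, no filter, a stricter filter (10 counts throughout a group, and 1 CPM in 3 libraries), other thresholds, the replicate number as a block, and leaving out each library or both numbered 1. No library repeated another (chi-square of counts between pairs per degree of freedom 5.21 to 14.1). Pairs within a group ran from 5.47 to 13.7, and pairs across the groups from 5.21 to 14.1.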

Additional observations from a re-analysis of the deposited data

How the results depend on the processing

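No member passed an adjusted p under 0.05 in any of 15 alternatives, the lowest adjusted p being 0.177, without both libraries numbered 1. The alternatives were followed for the 16 members with the smallest p or with groups that do not overlap. All 16 kept the direction of their fold change wherever they were tested. Where groups do not overlap, leaving out a library can hardly reverse the direction, so this is no separate support for it. Efna5 ranged from 0.23 to 0.32 and Efna1 from -0.88 to -0.53 (log2). Over all genes, the count past the threshold was 14 with DESeq2, 8 without a filter, 91 without both libraries numbered 1, and 2 to 13 without any 1 library. Members at an unadjusted p under 0.05 numbered 3 with DESeq2 and 3 to 5 without any 1 library, among them 5 without PDTLN1 library 2 or 3, against 3.12% and 3.46% of all genes; the median log2 fold change then ran from -3.99e-05 to 0.0556, below 0 without control library 1. Groups did not overlap for 28 members without both libraries numbered 1, and 14 to 19 without any 1 library, against 16.4% to 25.8% of all genes, where fewer libraries make separation more frequent. With FPKM above 2, 21 members passed in place of 33. With the replicate block the count over all genes was 1 and that of members at an unadjusted p under 0.05 was 5, against 2.2% of all genes. Libraries with the same number had deviations correlated at r = -0.38, -0.15 and -0.12 across genes, and no label ties the numbers, so the pairing is by number only. The median SE of a member's log2 fold change was 0.13, and low counts widened it, to 0.45 for Epha3.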

Other observations

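Several members lie side by side on a chromosome, and neighbours did not share a direction throughout. Efna1, Efna3 and Efna4 follow each other on chromosome 3, with gaps of 32.8 and 10.4 kb, and had log2 fold changes of -0.68, 0.05 and -0.01. Of the 11 tested genes from 50 kb before Efna1 to 50 kb after Efna4, Efna1 was the 1 whose groups did not overlap, and the other 10 lay between -0.15 and 0.10. Sema4a lies 811 kb before Efna1, at -0.59.

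The secreted semaphorin genes Sema3d, Sema3a, Sema3e and Sema3c follow each other on chromosome 5, with gaps of 536, 423 and 3318 kb, and had log2 fold changes of 0.10, 0.31, 0.17 and 0.33. Sema3b and Sema3f, 72.3 kb apart on chromosome 9, stood at -0.28 and -0.07. The fold changes of Efna3, Efna4, Sema3a, Sema3b and Sema3f were not recomputed under the alternatives. None of these passed edgeR's adjusted threshold, and no difference between the chromosomes was tested.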
